A study of Homo sapiens with 5 samples.

Results

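The replication-dependent histone genes, which supply the proteins that package newly made DNA, were taken as every gene row whose symbol begins with HIST1H, HIST2H, HIST3H or HIST4H. The rule found 73 of 25343 gene rows, 70 of them protein-coding and 3 pseudogenes (HIST2H2BA, HIST2H2BC and HIST1H2APS1). By cluster, 56 belonged to HIST1 on chromosome 6, 13 to HIST2 and 3 to HIST3 on chromosome 1, and 1 to HIST4 on chromosome 12. By protein they were 6 H1, 18 H2A, 20 H2B, 14 H3 and 15 H4 genes. RNA came from SW620, a human colon carcinoma line, and every library carried the genotype tet-MUC1shRNA, an inducible short hairpin RNA against MUC1. The 5 libraries were labelled neg (replicates 1, 2 and 3) and pos (replicates 1 and 3). The labels say that cells in RPMI1640 with 10% FBS received vehicle or doxycycline, the inducer of tet-controlled constructs, without saying which label received which, so the names neg and pos were kept. The labels do not say whether the line is a clone. No library with doxycycline and a control hairpin was analysed here. The labels speak of culture in triplicate and of nothing further that separates the libraries of a group, so p-values measure the spread between these libraries.

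In dividing cells, replication-dependent histone mRNA accumulates in S phase and is destroyed when DNA synthesis ends. The genes have no introns, and their main transcripts end in a short conserved hairpin, the histone stem-loop, instead of a poly(A) tail. The stem-loop is bound by SLBP and the transcript is cleaved with the help of the U7 small nuclear ribonucleoprotein. Some of these genes also make polyadenylated transcripts, which are known above all from differentiated cells. The libraries were made with the TruSeq Stranded mRNA kit, which selects poly(A) RNA, so the counts cover what poly(A) selection left of each gene's RNA and not its stem-loop-ended mRNA as a whole.

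A stem-loop was found past the stop codon in 70 of 70 coding members, with 23 to 68 bases between stop codon and hairpin (median 36). The 4 forms carried by more than 1 member are shown because the stems of H4 differ from those of the other 4 families, which share their forms, with capitals marking the 4-base loop between the strands of the stem. The transcript sequences are those of GENCODE 44 on hg38.
Form carried by 40 members of the H1, H2A, H2B and H3 families, HIST1H1C and HIST3H2A included: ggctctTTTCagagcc
Form carried by 10 members, HIST1H2BK included: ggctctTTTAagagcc
Form carried by 10 H4 members: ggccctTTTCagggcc
Form carried by 4 H4 members: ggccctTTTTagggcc
The other 6 coding members each carried a form of their own. In 52 of the 70 the annotated transcripts ended at the hairpin, and in 18 at least 1 annotated transcript ran over 100 bases past it. The polyadenylation signal AATAAA lay within 30 bases past the hairpin in 4 members, HIST1H1C, HIST1H2BD, HIST2H2AA3 and HIST2H2AA4.

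Proximal promoters are shown for the 3 members that passed the test between pos and neg. Each is the 200 bases before the RefSeq start (GRCh38.p14), and capitals mark matches on either strand. The motifs were CCAAT, the TATA core TATAA, the octamer of H2B promoters ATTTGCAT, and the box of H1 promoters, spelled AAACACA.
HIST3H2A promoter, chr1:228457874-228458073, minus strand: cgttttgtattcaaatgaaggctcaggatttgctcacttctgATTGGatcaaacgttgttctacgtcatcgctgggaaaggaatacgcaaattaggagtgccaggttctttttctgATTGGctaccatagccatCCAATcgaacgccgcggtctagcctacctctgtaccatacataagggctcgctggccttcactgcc
HIST1H2BK promoter, chr6:27146859-27147058, minus strand: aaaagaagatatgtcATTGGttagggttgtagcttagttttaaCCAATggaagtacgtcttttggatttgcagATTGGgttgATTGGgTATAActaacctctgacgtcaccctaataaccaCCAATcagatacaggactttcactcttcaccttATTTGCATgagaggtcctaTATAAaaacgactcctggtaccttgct
HIST1H1C promoter, chr6:26056471-26056670, minus strand: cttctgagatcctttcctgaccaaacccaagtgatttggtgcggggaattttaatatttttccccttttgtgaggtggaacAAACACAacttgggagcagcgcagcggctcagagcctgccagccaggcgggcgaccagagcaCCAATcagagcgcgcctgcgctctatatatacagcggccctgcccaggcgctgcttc
Promoter sequences were matched for 65 members. CCAAT stood in 84.6% of them and in 28.9% of 27305 RefSeq promoters of the same length, and within the histone genes it stood in all promoters of H1, H2A, H2B and H3 but in 3 of 13 of H4. TATAA stood in 84.6% against 16%. The octamer stood in 33.8% against 1.32%, in 14 of 18 H2B and 7 of 16 H2A promoters. The H1 box stood in 6 of 6 H1 promoters and in no other histone promoter, against 3.86% of all promoters. Both strands were searched, TATAA can overlap its own reverse complement, and a match describes letters only. Head-to-head H2A and H2B genes start 194 to 248 bases apart, so the 200-base windows of such a pair overlap. One match can then count for both genes, and the 65 promoters are not separate stretches of DNA. Of the 3 promoters shown, HIST1H2BK held the CCAAT, TATA and octamer motifs, HIST1H1C the CCAAT and H1 box motifs, and HIST3H2A the CCAAT motif alone.

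Total counts were 10888704 to 14137678 per library. Histone genes took 735, 817 and 718 reads in neg replicates 1, 2 and 3, and 1261 and 2278 in pos replicates 1 and 3. Those are shares of 0.00558% (95% Wilson interval 0.00519 to 0.006), 0.00578% (0.0054 to 0.00619) and 0.00659% (0.00613 to 0.00709) in neg, and of 0.0103% (0.00979 to 0.0109) and 0.0169% (0.0162 to 0.0176) in pos, intervals that cover counting error only. MUC1, the hairpin's target, had 176, 252 and 218 reads in neg and 27 and 13 in pos. The libraries of 1 group differed by more than counting error, least between neg replicates 1 and 2 (chi-square per degree of freedom 6.02) and most between the pos libraries (152). Of 9 colon epithelium markers, 7 had over 100 reads in every library. CDX1 had at most 1 read, and KRT20 had 16, 31 and 23 in neg and 0 and 4 in pos. Of 12 markers of other cell types, 4 were at 0 throughout, PTPRC, CD3E, COL1A2 and HBB. The 5 tested ones, COL1A1, VWF, LUM, CD14 and ACTA2, summed to 24.2 to 28.0 CPM (reads scaled to library size) in neg and 15.2 and 16.8 in pos. COL1A1 was the highest of them in neg, with 228, 259 and 204 reads there and 79 and 59 in pos.

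Few histone genes carried most of the histone reads. A read was seen for 58 of the 73 in at least 1 library, and 15 were at 0 in all 5, where a count of 0 allows up to 3 reads, or 0.188 to 0.316 CPM. Of those 15, 8 shared at least 80% of their 50-base windows with another gene (HIST2H4A, HIST2H4B, HIST2H3A, HIST2H3C, HIST2H2AA3, HIST2H2AA4, HIST1H2AD and HIST1H2APS1), so that the authors' counting could have discarded or moved their reads, and 6 shared no window. HIST1H2AA, HIST1H2BA and HIST3H3, which encode testis histones, were among these 6, and the testis linker histone gene HIST1H1T had 1 read in neg replicate 1 and 2 in pos replicate 3. The 6 members with the most reads were HIST1H1C, HIST3H2A, HIST1H2BK, HIST1H2BD, HIST1H2AC and HIST2H2BE. They took 538 of 735, 617 of 817 and 441 of 718 histone reads in neg, and 1063 of 1261 and 1843 of 2278 in pos.

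**Figure D1:**
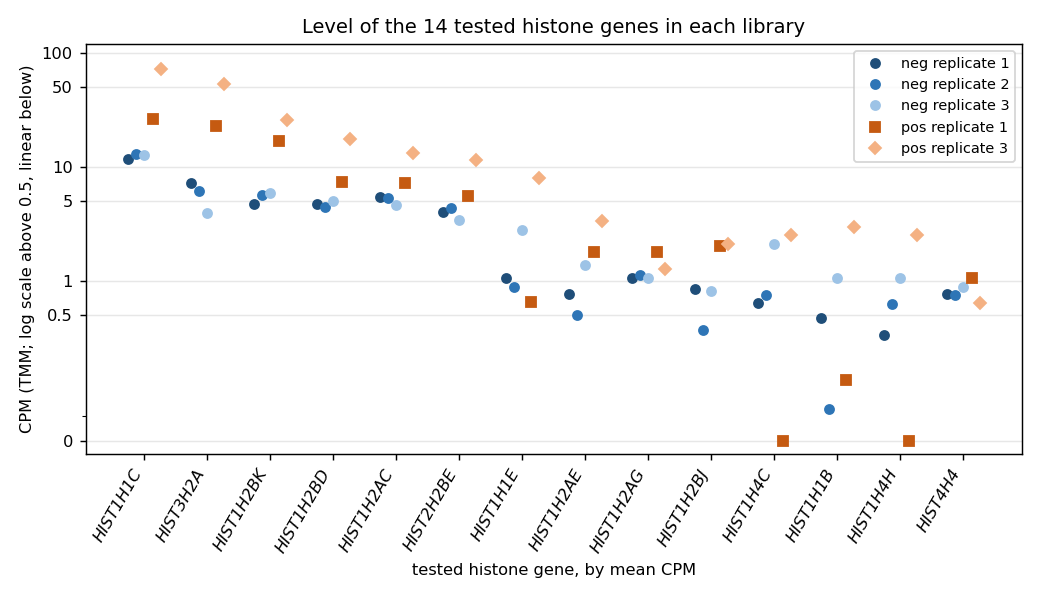
Level in CPM of the tested histone genes in each of the 5 libraries, on a log axis. HIST1H1C and HIST3H2A reach 73.0 and 53.5 CPM in pos replicate 3, whereas most of the others stay at a few CPM.

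The filter on low counts left 14 members in the test: 3 H1, 4 H2A, 4 H2B, 3 H4 and no H3. Of these, 12 passed it through the neg libraries alone and 2, HIST1H4H and HIST1H1B, only with the help of a pos library. The 59 members outside the test had at most 35 reads in any library (HIST1H4I in pos replicate 3).

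Comparing pos with neg asks how histone transcripts differed between the induced and uninduced states that the labels name without assigning them. The summed level of all 73 members was 51.4, 51.3 and 57.7 CPM in neg and 102 and 240.02 in pos. Both pos libraries were above every neg library, and pos replicate 3 was far above pos replicate 1. The group means were 53.4 ± 3.65 (SD, n = 3) and 171 ± 97.6 (SD, n = 2), a ratio of 3.20. Without pos replicate 3 that ratio was 1.91, and without pos replicate 1 it was 4.49. Of the 14 tested members, 3 rose in pos and 0 fell (edgeR's quasi-likelihood test, adjusted p threshold 0.05), or 21.4%, against 5.06% of all 13604 tested genes called higher and 4.13% called lower. The members' median log2 fold change was 1.42 and that of all tested genes was -0.05. In 9 of the 14 both pos libraries lay above all neg libraries, against 26.7% of all tested genes, and in none did both lie below, against 29.3%. In these bulk libraries a larger share of cells in S phase and more histone RNA per cell cannot be told apart.

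**Figure D2:**
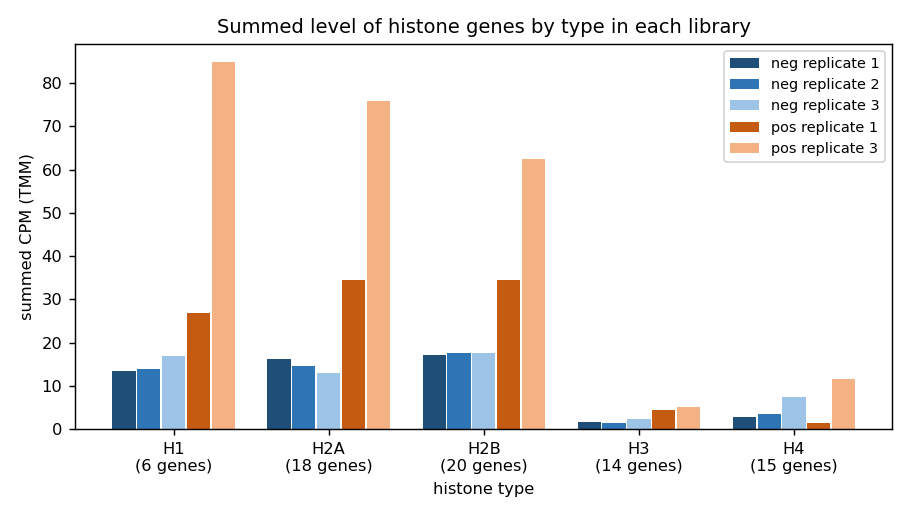
Summed CPM of each histone family in each library, with a bar for each library. H1, H2A, H2B and H3 were higher in both pos libraries than in any neg library, and the H4 groups overlapped. In pos replicate 1, HIST1H1C held 322 of the 333 H1 reads and HIST1H3E 30 of the 55 H3 reads.

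Linker histones bind where DNA enters and leaves the nucleosome. H1 members summed to 13.5, 14 and 16.9 CPM in neg and to 26.9 and 84.8 in pos. HIST1H1C (current symbol H1-2, hg38 chr6:26055740-26056470) made up most of that, with 166, 205 and 157 reads in neg and 322 and 693 in pos. In CPM these were 11.6, 12.9 and 12.6 against 26.0 and 73.0, so the groups did not overlap and the pos libraries differed from each other more than the neg libraries did. HIST1H1C rose from 12.4 ± 0.674 to 49.5 ± 33.2 CPM, a log2 fold change of 2.0 (SE 0.43, edgeR adjusted p = 0.0455). That call was lost under limma-voom and under scaling by library size alone. HIST1H1E had 15, 14 and 35 reads in neg, 8 in pos replicate 1 and 76 in pos replicate 3. HIST1H1B had 7, 2 and 13 in neg, 3 in pos replicate 1 and 28 in pos replicate 3. Both therefore lay within or below the neg range in one pos library and above it in the other, and neither passed the test (adjusted p = 0.331 and 0.360). HIST1H1D had 4, 2 and 6 reads in neg and 0 and 6 in pos, and HIST1H1A had none.

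H2A and H2B form the dimer that caps each face of the nucleosome. H2A members summed to 16.1, 14.6 and 13.1 CPM in neg and to 34.6 and 76.0 in pos. HIST3H2A (H2AC25, hg38 chr1:228457364-228457873), the H2A gene of the small HIST3 cluster, had 104, 98 and 49 reads in neg and 283 and 508 in pos. In CPM these were 7.27, 6.16 and 3.93 against 22.9 and 53.5, with a wide gap between the groups. The mean rose from 5.79 ± 1.70 to 38.2 ± 21.7 CPM, a 6.57-fold difference (log2 fold change 2.72, SE 0.44, edgeR adjusted p = 0.0360). HIST1H2AC had 77, 85 and 58 reads in neg and 89 and 125 in pos, a log2 difference of 0.98 that did not pass (adjusted p = 0.0923). HIST1H2AE had 11, 8 and 17 against 22 and 32 reads (log2 difference 1.55, adjusted p = 0.109). HIST1H2AG had 15, 18 and 13 against 22 and 12 reads (log2 difference 0.51, adjusted p = 0.365). The 3 that missed the threshold nevertheless had both pos libraries above all neg libraries in CPM.

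H2B members summed to 17.1, 17.7 and 17.7 CPM in neg and to 34.6 and 62.4 in pos. HIST1H2BK (H2BC12, hg38 chr6:27138293-27146858) had 67, 90 and 73 reads in neg and 210 and 243 in pos. Its pos libraries were closer to each other than those of HIST1H1C and HIST3H2A, at 17.0 and 25.6 CPM against 4.68, 5.65 and 5.86 in neg. The mean rose from 5.40 ± 0.630 to 21.3 ± 6.10 CPM (log2 fold change 1.98, SE 0.27, edgeR adjusted p = 0.0326). Its identity is less certain than that of the others called, because 57.2% of its 50-base windows occur in other genes, against 1.1% for HIST3H2A and 0 for HIST1H1C. HIST1H2BD had 67, 70 and 62 reads in neg and 90 and 165 in pos (log2 difference 1.39), and passed with DESeq2 (adjusted p = 0.0178) but not with edgeR (0.0713). HIST2H2BE, whose canonical transcript of 2224 nt is the longest among the tested members, had 57, 69 and 42 reads in neg and 69 and 109 in pos (log2 difference 1.12, adjusted p = 0.0937). HIST1H2BJ had 12, 7 and 10 against 25 and 20 reads (log2 difference 1.57, adjusted p = 0.0677). All 4 tested H2B genes had both pos libraries above all neg libraries.

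H3 and H4 form the central tetramer. H3 members summed to only 1.75, 1.51 and 2.49 CPM in neg and to 4.45 and 5.16 in pos, and none entered the test. HIST1H3B had 3, 2 and 2 reads in neg and 11 and 8 in pos, with both pos libraries higher. HIST1H3I went the other way, with 3, 3 and 6 reads in neg and 0 in both pos libraries. Some other H3 genes differed between the pos libraries. HIST1H3E had 4, 3 and 3 reads in neg, 30 of the 55 H3 reads in pos replicate 1, and 1 read in pos replicate 3. HIST1H3H had 1, 4 and 2 in neg, 0 in pos replicate 1 and 15 in pos replicate 3. H4 members summed to 2.86, 3.58 and 7.47 CPM in neg, 1.37 in pos replicate 1 and 11.7 in pos replicate 3, so the pos libraries lay on either side of neg. HIST1H4C had 9, 12 and 26 reads in neg and 0 and 24 in pos (log2 difference 0.08, adjusted p = 0.969). HIST4H4, the lone member on chromosome 12, had 11, 12 and 11 against 13 and 6 (log2 difference 0.09, adjusted p = 0.893). HIST1H4H, the remaining tested member and named after its values were seen, had 6, 10 and 13 against 0 and 24 reads (adjusted p = 0.662). HIST1H4I, too low for the test, had 4, 3 and 5 reads in neg, 0 in pos replicate 1 and 35 in pos replicate 3.

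The zeros of pos replicate 1 ran through the whole group of weakly detected members. Of 44 members with a read in all 3 neg libraries, 21 were at 0 in pos replicate 1 and 7 in pos replicate 3. Members with 1 to 3 reads numbered 28, 28 and 25 in neg, 3 in pos replicate 1 and 13 in pos replicate 3. Low counts were scarcer in pos replicate 1 among all genes too, where 412 genes had 1 to 3 reads against 2200 to 2215 in neg and 1440 in pos replicate 3, and the part of this in the members' zeros was not tested.

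**Figure D3:**
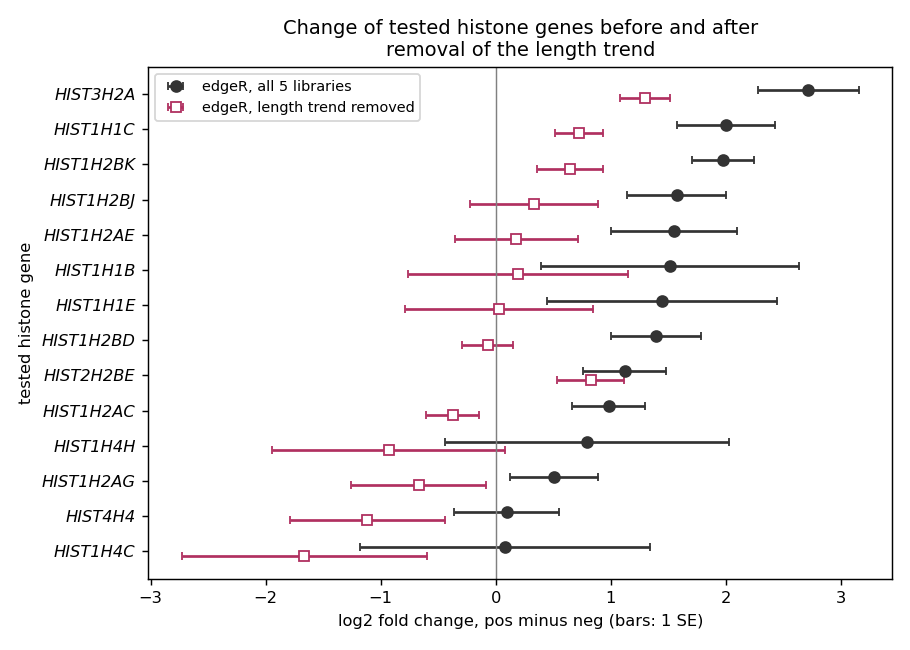
log2 fold change of pos over neg for the tested histone genes, with standard errors, before and after a transcript-length trend was removed from each library. Before removal all 14 point estimates are above 0, and after it HIST3H2A alone passes the test, at 1.30.

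Canonical histone transcripts are short, and short transcripts as a class stood higher in the pos libraries. Of 933 tested genes of at most 1000 nt, 21.2% were called higher, close to the 21.4% of histone members, and 59.5% had both pos libraries above neg, against 64.3% of members. Relative to the neg mean, the median log2 ratio in pos replicates 1 and 3 was 0.57 and 1.77 for the tested histone members, 0.52 and 1.57 for genes of at most 1000 nt, and -0.02 and -0.11 for all tested genes. The longest length class, with a median of 11426 nt, lay at -0.37 and -1.59. Length thus moved with the histone difference in both pos libraries, and more in pos replicate 3.

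With the length trend removed from every library, 1 member stayed called higher, against 7.31% of all tested genes. None was called lower, against 6.65%, and the members' median log2 fold change fell from 1.42 to 0.10. The member was HIST3H2A (1.30, adjusted p = 0.0194). HIST1H1C moved to 0.72 (adjusted p = 0.0633), HIST2H2BE to 0.83 (0.102) and HIST1H2BK to 0.65 (0.171). HIST1H2BD moved to -0.07, HIST1H2AC to -0.37 and HIST1H2AG to -0.67. Of the 14 estimates 8 stayed above 0. These values use canonical lengths, and the lengths of the RNA that poly(A) selection kept are not known. With the longest annotated transcript's length, chosen after seeing the data, the median was 0.25 and 10 of 14 estimates were above 0. HIST3H2A then stood at 2.01 and HIST1H2AC at 0.33, both higher than with canonical length. HIST1H1C at 0.69 and HIST2H2BE at 0.70 were lower. How the length difference arose was not tested.

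**Figure D4:**
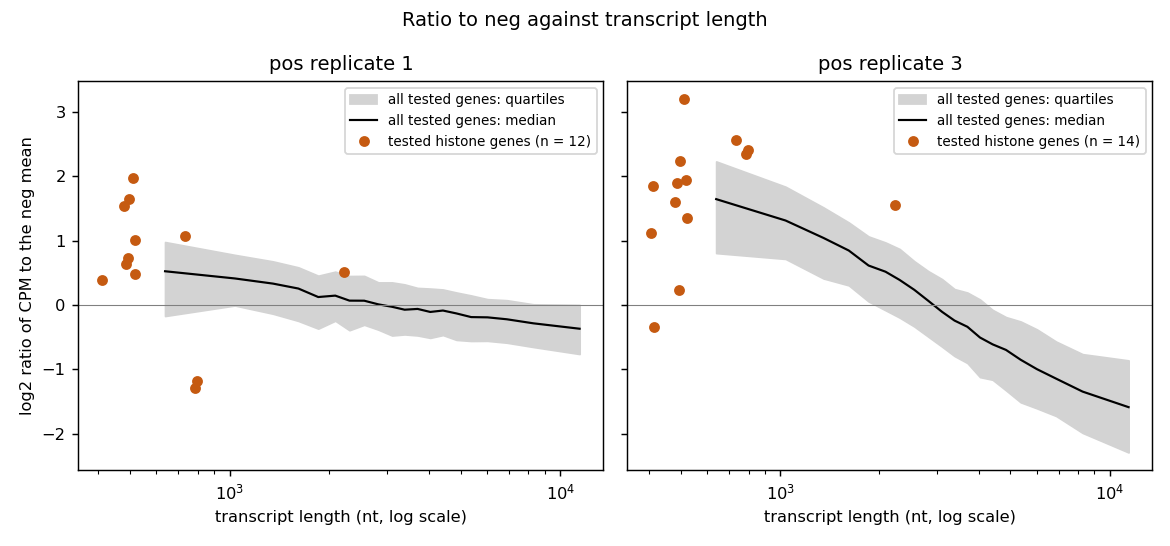
log2 ratio of each pos library to the neg mean against transcript length (nt, log axis), as medians of 20 classes of tested genes, with the tested histone genes as points. The medians fall from 0.53 to -0.37 in pos replicate 1 and from 1.65 to -1.59 in pos replicate 3, and HIST3H2A and HIST1H1C lie above them at the short end.

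The 3 calls depended on which libraries entered the fit. Without any 1 of the neg libraries edgeR called no gene at all, 0 members included, although 2510 to 3033 genes and 4 to 6 members had an unadjusted p under 0.05. Fits without 1 of the pos libraries rest on a lone pos library, so only their effect sizes are given here. Without pos replicate 1 the median log2 fold change was 1.94 over 21 members, against -0.07 for all tested genes. Without pos replicate 3 it was 0.65 over 20 members, against -0.05. HIST3H2A, HIST1H1C and HIST1H2BK stood at 3.245, 2.61 and 2.29 without pos replicate 1, and at 1.95, 1.05 and 1.625 without pos replicate 3. HIST1H4C and HIST1H4H, both at 0 in pos replicate 1, stood at 1.22 and 1.92 without it. Without pos replicate 3 they stood at -6.96 and -6.26.

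The members were also grouped by where their transcripts are annotated to end, since poly(A) selection acts there. The 6 members with the most reads all belonged to the 21 coding members that are either annotated past the stem-loop or carry AATAAA within 30 bases of it, a grouping drawn up with the read counts known. Those 21 summed to 41.4, 42.5 and 39.5 CPM in neg and to 92.3 and 204 in pos, with both pos libraries higher. The other 49 coding members summed to 9.71, 8.67 and 18.0 CPM in neg, to 9.62 in pos replicate 1 and to 35.5 in pos replicate 3, so here pos replicate 1 lay within the neg range. The median log2 fold changes of the tested genes were 1.39 over 9 and 1.44 over 5, and no test was made between the classes.

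Head-to-head neighbours that share a promoter region were read very unequally. By RefSeq gene bounds there were 13 pairs of members with starts 194 to 248 bases apart, 12 of an H2A with an H2B gene. The other was HIST1H3D, an H3 gene, with HIST1H2BF. The RefSeq bounds start HIST1H3D at the same base as HIST1H2AD, which is itself paired with HIST1H2BF. The canonical HIST1H3D transcript is 503 nt of that 2510 nt span, at the end away from HIST1H2BF, so this H3 pair rests on the annotation alone. Of the 13 pairs, 6 had at least 100 reads over the 5 libraries. HIST3H2A had 1042 reads against 9 for HIST3H2BB, whose counts were 5, 3 and 1 in neg and 0 in both pos libraries while its neighbour rose. HIST1H2BK had 683 against 19 for HIST1H2AH, which stayed at 2 to 6 reads in every library. HIST2H2BE had 346 against 23 for HIST2H2AC, and HIST1H2AC had 434 against 31 for HIST1H2BC. The pairs HIST1H2AE with HIST1H2BG (90 and 37 reads) and HIST1H2AG with HIST1H2BJ (80 and 74) were more even. The partner with few reads was an H2A gene in some pairs and an H2B gene in others.

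**Figure D5:**
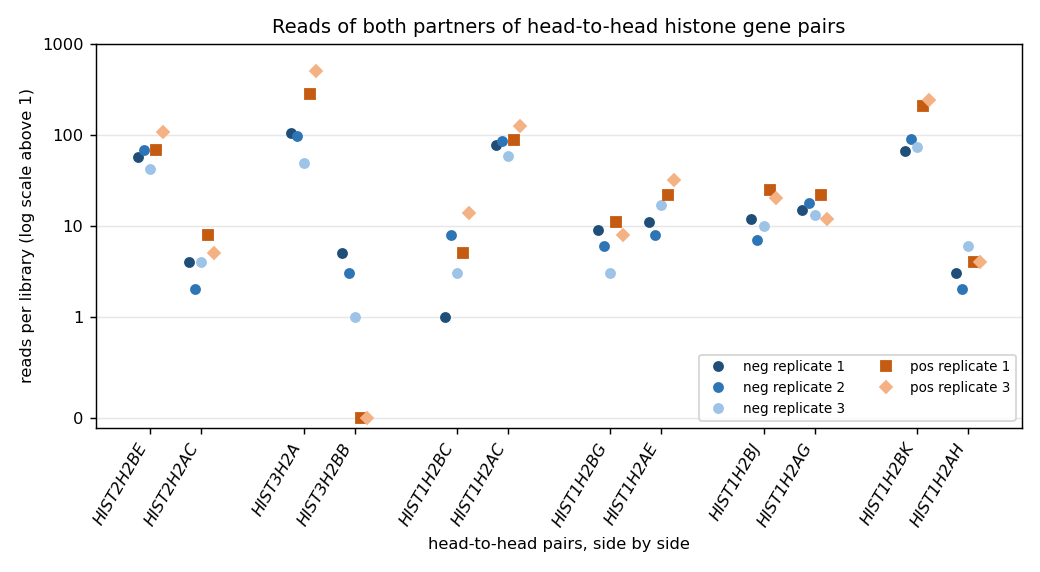
Reads of each partner of the 6 head-to-head pairs with at least 100 reads, by library. The HIST3H2A points reach 508 reads whereas HIST3H2BB has at most 5, and HIST1H2AG and HIST1H2BJ are nearly even.

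Replacement histones are made outside S phase as well, and most of their mRNAs carry poly(A) tails. Of 20 genes listed for these and other variant histones, 11 were tested. Of these, 2 rose (18.2%) and 0 fell, against 5.06% higher and 4.13% lower among all tested genes. Their median log2 fold change was 0.89, against -0.05 for all tested genes. H2AFZ, which encodes the H2A.Z found at promoters, had 1133, 948 and 663 reads in neg and 1559 and 1691 in pos (log2 fold change 1.25, SE 0.26, edgeR adjusted p = 0.0449). CENPA, the H3 of centromeres, had 144, 106 and 102 reads in neg and 250 and 200 in pos (log2 fold change 1.31, SE 0.25, adjusted p = 0.0392). Neither passed with the canonical length trend removed (adjusted p = 0.375 and 0.114), and H2AFZ did with the longest transcript's length (0.0398).

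H2AFX, the H2A form phosphorylated at DNA breaks, differed by 1.45 on the log2 scale (adjusted p = 0.0635), H2AFJ by 1.61 (0.0521) and the linker histone gene H1FX by 1.23 (0.103), none passing. H1F0, the linker histone of resting and differentiated cells, had 19053, 20614 and 16116 reads in neg and 11433 and 10424 in pos, a log2 difference of -0.37 (adjusted p = 0.240) that passed at -0.64 with length removed (0.0256). H3F3B, a source of the H3.3 protein, differed by 0.07 (adjusted p = 0.827), and H3F3A is listed at 0 in every library. Per kilobase of transcript, H1F0 stood at 593 CPM in neg, against 16.9 for HIST1H1C and 11.3 for HIST3H2A. In poly(A) libraries those levels do not compare the genes' whole mRNA pools.

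The machinery that makes histone mRNA was read from 3 lists, beside the background of 5.06% higher and 4.13% lower. In the list of 10 for histone gene transcription, 1 rose (10%) and 0 fell, with a median log2 fold change of 0.002. The riser was CDK2, the kinase that activates NPAT in S phase, with 803, 751 and 574 reads in neg and 1296 and 1011 in pos (log2 fold change 1.09, SE 0.19, adjusted p = 0.0381). NPAT itself, the coactivator specific to histone genes, had 335, 424 and 426 reads in neg, 310 in pos replicate 1 and 66 in pos replicate 3 (log2 difference -0.80, adjusted p = 0.312). CASP8AP2, which works with NPAT, showed the same spread, with 225, 314 and 368 against 212 and 59 reads (adjusted p = 0.246). Both transcripts are long (6113 and 6088 nt), and at such lengths pos replicate 3 was low in general. The length class with a median of 6018.5 nt had a median log2 ratio of -0.997 there, with a lower quartile of -1.606. NPAT and CASP8AP2 were lower still in pos replicate 3, at -2.014 and -1.801. With the length trend removed their log2 differences between pos and neg were -0.359 and -0.396 (edgeR adjusted p = 0.455 and 0.393). The part of length in these differences was not tested.

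Of 13 genes for 3-prime processing, 2 rose (15.4%) and 0 fell. They were SNRPG (log2 fold change 2.23, SE 0.29, adjusted p = 0.0316) and SNRPF (1.54, SE 0.33, adjusted p = 0.0457), Sm proteins that U7 shares with the splicing particles, both from short transcripts (594 and 452 nt). The proteins particular to histone mRNA did not pass. SLBP had 1128, 1142 and 820 reads in neg and 1212 and 742 in pos (log2 difference 0.29, adjusted p = 0.337). ZNF473 differed by -0.22 (adjusted p = 0.479), LSM10 by 0.95 (0.165) and LSM11 by -0.27 (0.534). Of 9 genes for histone mRNA decay, 0 rose and 1 fell (11.1%). ERI1, the exonuclease that trims the stem-loop end, fell from 18.9 ± 1.15 to 8.90 ± 1.71 CPM (log2 fold change -1.09, SE 0.23, adjusted p = 0.0453), a call kept with length removed (adjusted p = 0.0416) and lost under library size alone (0.0651).

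Of 23 histone chaperones and depositors, 1 rose (4.35%) and 0 fell, a share near the 5.06% of all tested genes called higher. The riser was ASF1B, the S phase carrier of H3 and H4, with 254, 227 and 148 reads in neg and 348 and 401 in pos (log2 fold change 1.26, SE 0.28, edgeR adjusted p = 0.0478). Of 43 genes for S phase and replication, 17 (39.5%) were higher in pos and 0 lower, against 5.06% and 4.13% of all tested genes. With the length trend removed 17 were higher, against 7.31%, where the histone members had 1 of 14. The count was 26 under DESeq2, with 1 lower, and 4 under scaling by library size alone. TYMS, which makes thymidylate, had 58, 55 and 46 reads in neg and 220 and 144 in pos (log2 fold change 2.14, SE 0.22, adjusted p = 0.0263). RRM2, a ribonucleotide reductase subunit, had 379, 411 and 306 against 981 and 679 (1.56, SE 0.18, adjusted p = 0.0270). DUT, which removes dUTP, had 469, 414 and 319 against 954 and 915 (1.62, SE 0.22, adjusted p = 0.0326). The difference between this list and the histone members was not tested.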

How the data were processed

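The authors deposited raw counts per gene symbol for 5 poly(A) libraries, aligned with STAR per the labels' protocols. Versions listed by the submitters' processing notes are STAR 2.5.2b, CASAVA 1.8.2 and DESeq2 1.24.0. The notes name hg19 as the build, whereas the extraction protocol names GRCh38. The counting program, its strand setting and its treatment of reads shared by paralogs appear in none of the sources used here. Coordinates and sequences printed are from RefSeq GRCh38.p14 and GENCODE 44 on hg38, joined by symbol, not from the authors' side. The 92 spike-in rows, all at 0, were left out.

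Counts were fitted in R 4.3.3 with edgeR 4.0.16 (filterByExpr with minimum count 10 and minimum total 15, TMM scaling, quasi-likelihood test, Benjamini-Hochberg adjustment over 13604 genes, threshold 0.05), after tests on simulated data. CPM uses TMM-scaled library sizes. The length trend was a lowess curve (span 0.3) of log2 CPM on canonical transcript length, for 97.4% of tested genes. DESeq2 1.42.0, limma-voom 3.58.1, other scalings and filters, a replicate block and leaving out each library were alternatives.

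Members, lists and figures' contents were chosen with earlier results of these data known. The members named by rule were those called, the 12 with the highest mean CPM, and the 3 highest and 3 lowest fold changes. Further members, HIST1H4H and untested ones among them, were named outside this rule. Of other genes, a fixed set of histone regulators and replacement histones was named whatever its p, with up to 3 called genes of smallest p per companion list.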

Additional observations from a re-analysis of the deposited data

How the results depend on the processing

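Counts of all genes called (689 higher and 562 lower) were 1799 and 1362 under DESeq2. Scaling by library size alone gave 148 higher, and over all tested genes the median went from -0.05 to -0.41 (log2). With the length trend removed 905 genes were lower, and with the longest transcript's length, an alternative chosen after seeing the data, 1052 were higher and 908 lower. The 3 members called higher became 4 under DESeq2 and 1 (HIST3H2A) with either length removed. The members' median log2 fold change, 1.42, was 0.10 with canonical and 0.25 with longest length removed.

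The replicate numbers 1 and 3 are shared by neg and pos, but the deviations of same-numbered libraries did not go together (r = -0.47 across genes), so the main test has no block. The replicate block gave 8 genes higher, 79 lower and 1 member higher (HIST3H2A), with a members' median log2 fold change of 1.04. Neg replicate 2 has no pos partner, and the block leaves few residual degrees of freedom for 5 libraries. A call lost with the block therefore does not show that the difference is absent. The block with length removed gave 160 higher, 255 lower and 0 members, with a median of -0.22. Of the 43 S phase genes, 0 passed with the block and 5 with block and length. The 10 companion genes named as called (H2AFZ, CENPA, CDK2, SNRPG, SNRPF, ERI1, ASF1B, TYMS, RRM2 and DUT) all lost their call with the block, and all but RRM2 with block and length. Library size alone kept SNRPG, TYMS and DUT, and limma-voom lost SNRPF and ASF1B. HIST3H2A passed in every fit with all 5 libraries except the edgeR fit with block and length removed together (adjusted p = 0.0925).

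Leaving out each library in turn, with and without the length trend for the pos libraries, gave 0 to 4324 genes higher, 0 to 4495 lower, 0 to 15 members higher, 0 to 3 members lower, and medians of 0.11 to 1.94. The highest of these counts all came from fits on a lone pos library, where the spread between pos libraries cannot be measured. No conclusion was drawn from those counts.

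Directions that turned were all of genes outside the 3 called. HIST1H4C was -1.86 under limma-voom and -1.0 with the block. HIST1H4H was -1.29 under limma-voom, -0.16 with the block, -0.93 with length removed and -1.76 with block and length. Library size alone gave HIST1H4C -0.49, HIST4H4 -0.25, SLBP -0.061 and H3F3B -0.35. Length removed gave HIST1H2BD -0.07, HIST1H2AC -0.37, HIST1H2AG -0.67, HIST1H4C -1.66, HIST4H4 -1.12, SLBP -0.088, ZNF473 0.16, LSM10 -0.18, LSM11 0.34 and H3F3B -0.017. Block and length together gave HIST1H2BD -0.11, HIST1H2AC -0.34, HIST1H1E -0.58, HIST1H2AE -0.073, HIST1H2AG -0.75, HIST1H4C -2.61, HIST1H1B -0.66, HIST4H4 -1.27, SLBP -0.15, ZNF473 0.15, LSM10 -0.21, LSM11 0.37 and H3F3B -0.058. The longest length gave HIST1H1E -0.024, HIST1H2AG -0.57, HIST1H4C -1.42, HIST4H4 -0.34, SLBP -0.19, ZNF473 0.047, LSM10 -0.14, LSM11 0.23 and H3F3B -0.13. Over the fits without 1 library, log2 differences ran -0.035 to 1.94 for HIST1H2BD, -0.51 to 1.40 for HIST1H2AC, -1.76 to 2.43 for HIST1H1E, -1.64 to 0.69 for HIST1H2AG, -0.26 to 1.73 for HIST1H2BJ, -7.15 to 1.22 for HIST1H4C, -1.58 to 2.52 for HIST1H1B, -2.17 to 0.37 for HIST4H4, -0.53 to 0.41 for SLBP, -1.97 to 0.041 for NPAT, -0.33 to 0.29 for ZNF473, -0.40 to 1.53 for LSM10, -0.43 to 0.60 for LSM11, -0.22 to 0.33 for H3F3B. The cause was not tested. Of the 73 members, 59 had too few reads for a test.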
